A study of Mus musculus with 12 samples.

Results

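Selenium enters proteins as selenocysteine, an amino acid that is built on its own transfer RNA and inserted at UGA codons. Seryl-tRNA is phosphorylated by the kinase PSTK and converted by SEPSECS, which takes its selenium from selenophosphate made by SEPHS2. During translation SECISBP2 binds the SECIS stem-loop in the untranslated region downstream of the coding sequence, and the elongation factor EEFSEC brings the charged tRNA to the ribosome. Erythroid cells use this machinery for selenoproteins that include the antioxidant enzyme GPX1. The 9 genes described here are Pstk, Sepsecs, Sephs1, Sephs2, Secisbp2, Secisbp2l, Eefsec, Trnau1ap and Scly, found on the array by gene symbol. Each was represented by 1 feature, so 9 of the 72688 features on the array and 9 of the 30702 genes named by 1 or more features are described. All 9 passed the filter on dim features, and 8 exceeded it in 12 of 12 arrays. Pstk, the dimmest, exceeded it in 11.

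Male mice ate a diet either adequate or deficient in selenium for 3 months and were then given phenylhydrazine, which lyses red cells so that the spleen makes new ones. Splenic erythroblasts were sorted on day 3. All 4 groups received the drug, so no unstressed erythroblasts were compared. The groups were proerythroblasts and the next stage, basophilic erythroblasts, on each diet, with 3 arrays per group and 5 ng of total RNA per array. The labels do not say whether replicates are separate animals or pools, nor the strain or age, and the p-values therefore measure only the spread between these samples. With 3 arrays per group, precision is limited throughout.

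Background was higher on the basophilic arrays, and replicate 2 stood apart on both diets. The median log2 value of the GC background features was 3.31 to 3.53 over the 6 proerythroblast arrays and 3.63 to 3.80 over 4 basophilic arrays, against 4.19 and 4.70 in replicate 2 of the adequate and deficient basophilic groups. The 95th percentile of the same features was 6.66 to 7.02 on the proerythroblast arrays and 7.42 to 8.93 on the basophilic arrays. The basophilic means of Pstk, Sepsecs, Eefsec and Trnau1ap were all below that basophilic range. In replicate 2 of the adequate and deficient basophilic groups all 9 members lay below the 95th percentile of their own array (8.33 and 8.93). Secisbp2 did so in adequate basophilic replicate 3 too (7.51 against 7.64). The part of background in these values was not tested. Deficient basophilic replicate 3 carries conflicting labels, since its description gives proerythroblasts while the title and the cell type give basophilic erythroblasts. It was used as basophilic. Erythroid markers were present in every array, with a mean log2 value of 9.70 to 11.12 over 9 markers. Neutrophil markers were also measured, with a mean over 9 markers of 7.11 to 8.60 in proerythroblasts and 6.01 to 6.87 in basophilic erythroblasts. In such bulk samples fewer cells of a type and less RNA per cell cannot be told apart.

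The promoters were compared for letters that the members share. RefSeq windows on GRCm38.p6 matched 8 of the 9 genes, with 9 windows because Sephs1 has 2 start sites, and Sepsecs was not matched. Pstk, Sephs2, Secisbp2 and Eefsec differed between stages, and Pstk also with diet in proerythroblasts, a call that depended on the arrays and the scaling. Below are the 250 bases before the start site of each. They lie at chr7:131370896-131371145 on the plus strand (Pstk), chr7:127274060-127274309 on the minus strand (Sephs2), chr13:51651458-51651707 on the plus strand (Secisbp2) and chr6:88446540-88446789 on the minus strand (Eefsec). They are written 5′ to 3′ along the gene, with capitals for letters that match a searched motif on either strand.
Pstk: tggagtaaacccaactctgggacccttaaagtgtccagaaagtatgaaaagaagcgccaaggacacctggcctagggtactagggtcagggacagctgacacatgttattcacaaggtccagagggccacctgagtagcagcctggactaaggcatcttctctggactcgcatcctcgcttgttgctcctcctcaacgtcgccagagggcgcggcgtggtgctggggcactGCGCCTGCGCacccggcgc
Sephs2: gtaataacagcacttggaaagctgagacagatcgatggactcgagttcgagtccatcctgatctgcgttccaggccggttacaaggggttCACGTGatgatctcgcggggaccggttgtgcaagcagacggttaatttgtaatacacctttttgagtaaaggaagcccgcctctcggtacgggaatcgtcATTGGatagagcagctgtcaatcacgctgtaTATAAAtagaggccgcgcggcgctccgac
Secisbp2: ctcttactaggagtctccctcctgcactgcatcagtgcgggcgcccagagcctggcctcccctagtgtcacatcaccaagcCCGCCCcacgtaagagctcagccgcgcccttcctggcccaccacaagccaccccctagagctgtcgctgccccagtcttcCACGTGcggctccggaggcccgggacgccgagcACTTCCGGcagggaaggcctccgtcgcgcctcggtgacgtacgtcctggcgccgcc
Eefsec: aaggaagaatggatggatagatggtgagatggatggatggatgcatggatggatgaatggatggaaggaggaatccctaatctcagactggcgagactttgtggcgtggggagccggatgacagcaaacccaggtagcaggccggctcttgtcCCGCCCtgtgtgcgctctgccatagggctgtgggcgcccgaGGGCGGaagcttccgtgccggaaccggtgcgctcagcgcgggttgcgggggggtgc
Capitals mark the NRF1 motif (GCGCA, then any 1 base, then GCGC, here on the opposite strand) in Pstk, at bases 19 to 10 before the start. In Sephs2 they mark the E-box CACGTG, the CCAAT box (CCAAT, here on the opposite strand) and the TATA box (TATAAA). In Secisbp2 they mark the GC box GGGCGG on the opposite strand, the E-box and the ETS motif CCGGAAGT on the opposite strand. In Eefsec they mark GC boxes on either strand. No 2 of these motifs overlapped in the windows shown.

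GC boxes were the most frequent match, in 6 of the 9 windows against 32.7% of all 32851 promoter windows of the same length. The CCAAT box was in 3 of 9 (33.8% of all), the E-box in 2 (6.02%), and the TATA box, the NRF1 motif and the ETS motif in 1 each (12.4%, 3.74% and 2.88%). The erythroid motifs were not found in any of the 9 windows: the GATA letters AGATAA (9.99% of all) and TGATAA (7.94%), and the KLF1 element CCACACCC (3.2%). The core of the antioxidant response element, TGACNNNGC (10.2% of all), was not found either. The G and C content was 58.8% for Pstk, 52.0% for Sephs2, 69.2% for Secisbp2 and 61.6% for Eefsec, against a median of 52.4% over all windows. A match describes letters only, and an absent match says only that these letters are not in these windows.

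The first question was how the machinery changed from proerythroblasts to basophilic erythroblasts. On the adequate diet 6 of the 9 members fell and none rose: Eefsec, Pstk, Sephs2, Sepsecs, Trnau1ap and Secisbp2, by 0.79 to 1.30 on the log2 scale. The same 6 fell on the deficient diet, by 0.61 to 1.32. Sephs1, Secisbp2l and Scly passed on neither diet, although Scly and Sephs1 did under some of the alternatives given with their values. The stage difference was wide over the whole array, with 54.2% of the 20128 tested genes past the threshold on the adequate diet (25.6% lower) and 56.0% on the deficient diet (24.9% lower), by limma with Benjamini-Hochberg adjustment at 0.05. The members' median difference was -0.88 on the adequate and -0.69 on the deficient diet, against 0.12 and 0.08 over all tested genes.

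The enzymes that act on the tRNA come first. Pstk had log2 values of 6.58, 6.93 and 6.72 in adequate proerythroblasts and 5.47, 5.50 and 5.56 in adequate basophilic erythroblasts. The deficient arrays had 6.16, 5.92 and 6.17 in proerythroblasts and 5.43, 5.14 and 5.60 in basophilic erythroblasts. The stages did not overlap on either diet, and the basophilic values lie close to the filter value of 5.30, the median of all values on the arrays. Pstk fell with stage by 1.23 (SE 0.15, adjusted p = 6.81e-05) on the adequate diet and by 0.69 (SE 0.15, adjusted p = 0.00619) on the deficient diet.

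Sepsecs, the synthase that puts selenium on the tRNA, had 8.42, 8.44 and 8.02 in adequate proerythroblasts and 7.58, 6.51 and 7.39 in adequate basophilic erythroblasts. Deficient arrays had 8.02, 8.09 and 7.79, and then 6.91, 6.30 and 6.72. Every basophilic array was below every proerythroblast array, and replicate 2 was the lowest basophilic array on both diets. Sepsecs fell by 1.13 (SE 0.26, adjusted p = 0.00537) and by 1.32 (SE 0.26, adjusted p = 0.0041).

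The second group supplies selenium. Sephs2, the selenophosphate synthetase that is itself a selenoprotein, had 9.28, 9.18 and 9.18 in adequate proerythroblasts and 8.34, 7.66 and 7.98 in adequate basophilic erythroblasts. With the deficient diet the values were 9.53, 8.61 and 9.11, and then 8.58, 7.95 and 8.18. The stages did not overlap on either diet, with 8.61 as the lowest deficient proerythroblast value and 8.58 as the highest deficient basophilic value. Sephs2 fell by 1.22 (SE 0.24, adjusted p = 0.00232) and by 0.85 (SE 0.24, adjusted p = 0.0171). The call on the deficient diet was lost after quantile normalization (-0.46, adjusted p = 0.0776) and without deficient proerythroblast replicate 1 or replicate 3 (adjusted p up to 0.0623).

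Sephs1, its paralog that carries no selenocysteine, had 9.06, 9.14 and 8.98 in adequate proerythroblasts and 8.95, 8.17 and 8.77 in adequate basophilic erythroblasts. Deficient proerythroblasts had 9.06, 8.66 and 9.02 and deficient basophilic erythroblasts 8.81, 7.08 and 8.73. The 7.08 of deficient basophilic replicate 2 was far below the other arrays of its group. The stage difference was -0.43 (95% interval -1.26 to 0.40, adjusted p = 0.34) and -0.71 (-1.54 to 0.12, adjusted p = 0.125), neither past the threshold. Without replicate 2 of both basophilic groups the estimates were -0.20 and -0.14, and without deficient basophilic replicate 1 the deficient difference passed (-1.01, adjusted p = 0.0458).

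Scly, the lyase that frees selenium from selenocysteine for reuse, had 8.89, 9.12 and 8.68, and then 8.62, 7.91 and 8.30, on the adequate diet. Its deficient values were 9.13, 8.31 and 8.82, and then 8.48, 7.47 and 8.48. The stages did not overlap on the adequate diet and overlapped on the deficient diet. The difference was -0.62 (95% interval -1.27 to 0.03, adjusted p = 0.0914) and -0.61 (-1.26 to 0.04, adjusted p = 0.0948). Scly passed on both diets with the replicate number as a block over all groups (adjusted p = 0.0422 and 0.0437). On the adequate diet it also passed without deficient basophilic replicate 2 (adjusted p = 0.0269) and in a fit of the arrays of that contrast alone (0.0273). The deficient difference was -0.27 without deficient basophilic replicate 2, and quantile normalization gave -0.34 and -0.27, none of these past the threshold.

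The third group reads the signal in the messenger RNA and delivers the tRNA. Secisbp2 had 8.45, 8.35 and 8.30 in adequate proerythroblasts and 7.72, 7.49 and 7.51 in adequate basophilic erythroblasts. In the deficient groups it had 8.41, 8.25 and 8.20, and then 7.83, 7.14 and 7.85. Its stages did not overlap, and it fell by 0.79 (SE 0.18, adjusted p = 0.00501) and by 0.68 (SE 0.18, adjusted p = 0.0134). The fall on the adequate diet was 0.51 after quantile normalization, and that on the deficient diet was 0.40 after it and 0.45 without replicate 2 of both basophilic groups, each still past the threshold.

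Eefsec, whose product carries selenocysteinyl-tRNA to the ribosome, had 8.45, 8.36 and 8.14 in adequate proerythroblasts and 7.16, 6.76 and 7.12 in adequate basophilic erythroblasts. The deficient arrays had 8.14, 7.59 and 7.83, and then 6.98, 6.69 and 6.76. Every basophilic array lay below every proerythroblast array. Eefsec fell by 1.30 (SE 0.17, adjusted p = 0.000132) and by 1.04 (SE 0.17, adjusted p = 0.00166).

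Trnau1ap encodes an RNA-binding protein (SECp43) that associates with the selenocysteine tRNA. It had 7.66, 7.79 and 7.64, and then 6.87, 6.79 and 6.79, on the adequate diet. The deficient groups had 7.44, 7.31 and 7.53, and then 6.78, 6.91 and 6.77. Replicates lay close together in all 4 groups, and the stages did not overlap. Trnau1ap fell by 0.88 (SE 0.11, adjusted p = 0.000107) and by 0.61 (SE 0.11, adjusted p = 0.0031).

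Secisbp2l, a paralog of Secisbp2, ran from 7.48 to 7.81 in adequate proerythroblasts and from 7.66 to 7.72 in deficient proerythroblasts. In basophilic erythroblasts it had 7.98, 7.06 and 7.74 on the adequate diet and 7.59, 6.82 and 7.92 on the deficient diet. The stages overlapped on both diets. The stage difference was -0.02 (95% interval -0.62 to 0.58, adjusted p = 0.961) and -0.24 (-0.84 to 0.36, adjusted p = 0.466). Its sign on the adequate diet turned under several alternatives, with 0.25 without replicate 2 of both basophilic groups.

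**Figure D1:**
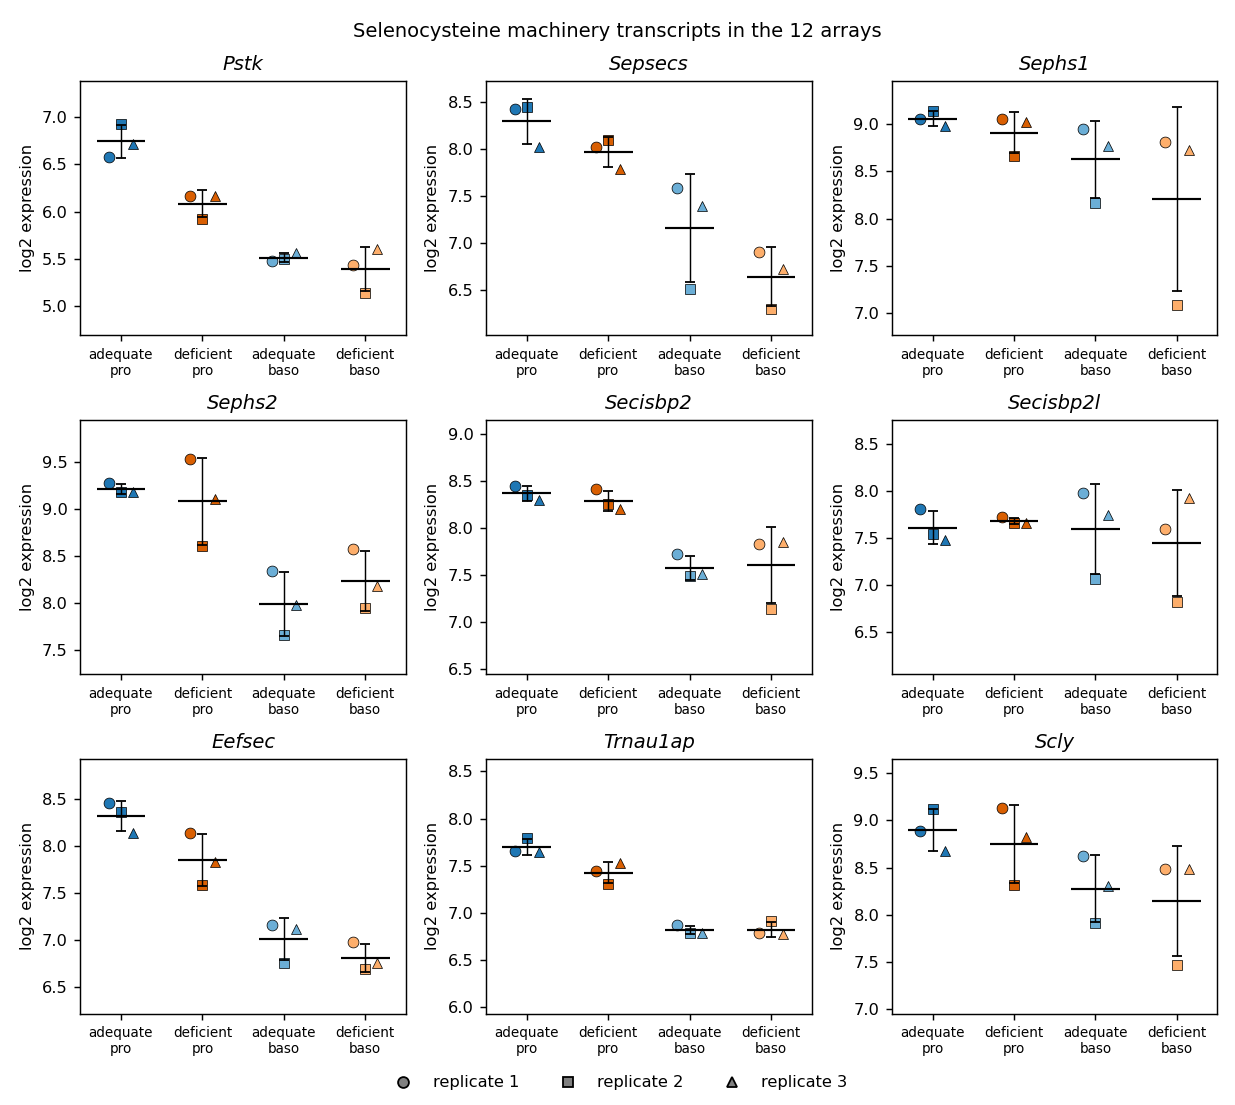
Log2 expression of the 9 genes in the 12 arrays by group (pro, proerythroblasts; baso, basophilic erythroblasts), with 1 symbol per replicate, the group mean as a horizontal line and bars of 1 SD (n = 3). Pstk, Sepsecs, Sephs2, Secisbp2, Eefsec and Trnau1ap were lower in every basophilic array than in every proerythroblast array of the same diet, and replicate 2 (squares) was the lowest basophilic array for 8 of the 9 genes on each diet.

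Counted by overlap alone, 8 members were lower in every basophilic array than in every proerythroblast array on the adequate diet, where 32.6% of tested genes were. On the deficient diet 6 members were, against 29.6% of tested genes. Without replicate 2 of both basophilic groups the same 6 members passed on each diet, where 68.2% and 58.7% of tested genes then passed. Eefsec was then at -1.18 and -0.98, Pstk at -1.23 and -0.57, and Sepsecs at -0.81 and -1.15. On the deficient diet, where deficient basophilic replicate 3 enters, Pstk, Sepsecs, Secisbp2, Eefsec and Trnau1ap passed in each of 12 fits that left out 1 array, that array included, and Sephs2 in 10. Over all tested genes, 24.6% to 61.7% passed in these 12 fits. Median centring of the arrays moved the median of all tested genes from 0.12 to -0.09 on the adequate and from 0.08 to -0.12 on the deficient diet. It also moved the split of calls over all genes to 30.0% lower and 10.7% higher on the adequate diet (25.6% and 28.7% as deposited) and to 30.0% and 17.3% on the deficient diet (24.9% and 31.1%). Quantile normalization gave 20.7% lower and 11.8% higher on the adequate diet and 18.6% and 22.2% on the deficient diet. The 6 members stayed below 0 under both scalings on both diets, and only Sephs2 lost its call, on the deficient diet after quantile normalization. Fewer calls were kept on the deficient diet in a fit of the arrays of that contrast alone, where 4 members and 14.5% of all tested genes passed. The same kind of fit on the adequate diet called 7 members and 66.4% of all tested genes.

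**Figure D2:**
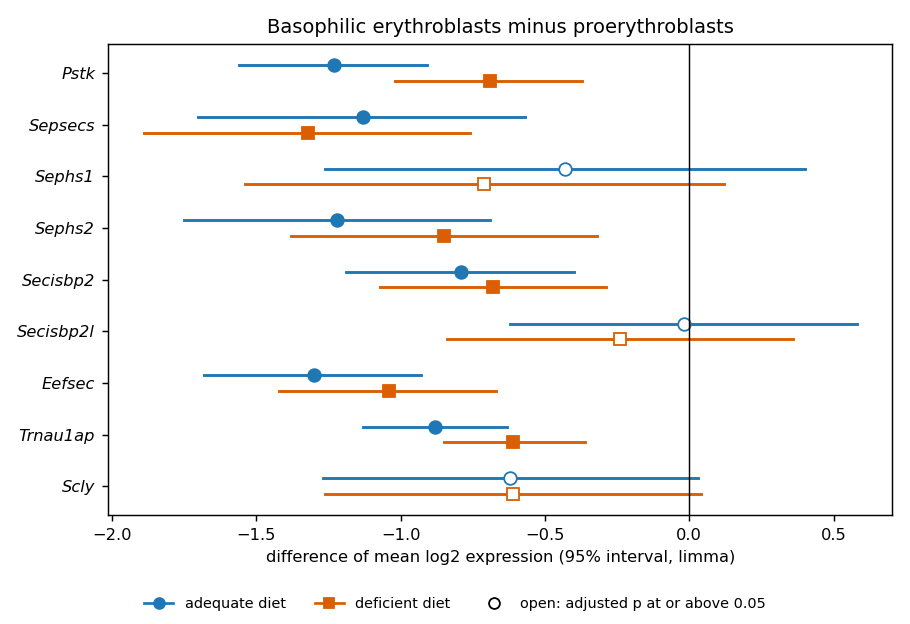
Difference of mean log2 expression, basophilic erythroblasts minus proerythroblasts, for each gene on the adequate (circles) and deficient (squares) diet, with 95% limma intervals and open symbols where the adjusted p was 0.05 or above. Estimates for Sephs1, Secisbp2l and Scly are open on both diets, and those of the other 6 genes lie below 0 with their intervals.

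Neutrophil markers moved in the same direction as the members. Of 9 neutrophil markers tested, 7 fell and 1 rose with stage on the adequate diet, and 6 fell on the deficient diet, with medians of -1.76 and -1.57. Of 11 macrophage markers 2 rose on each diet, and none of 4 B cell markers passed. Of 4 stroma markers 3 rose on each diet, and of 3 megakaryocyte markers and of 6 T and NK cell markers 1 rose in each list on each diet. The part of these other cells in the members' stage difference was not tested.

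The 2 paralog pairs were then compared within each array, a contrast chosen after the values were seen. The difference Secisbp2 minus Secisbp2l was 0.64, 0.81 and 0.82 in adequate proerythroblasts and -0.26, 0.43 and -0.23 in adequate basophilic erythroblasts. In the deficient groups it was 0.69, 0.59 and 0.54, and then 0.24, 0.32 and -0.07. The stages did not overlap on either diet. This difference fell by 0.78 on the adequate and by 0.44 on the deficient diet. Because the pair was picked for these values, no test is given.

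For Sephs2 minus Sephs1 the values were 0.22, 0.04 and 0.20, and then -0.61, -0.51 and -0.79, on the adequate diet. In the deficient groups they were 0.47, -0.05 and 0.09, and then -0.23, 0.87 and -0.55. The adequate stages did not overlap, while on the deficient diet replicate 2 of the basophilic group lay above all proerythroblast arrays. The change was -0.79 on the adequate and -0.14 on the deficient diet. The size of a within-array difference has no meaning between probes, and only its change between groups is read.

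**Figure D3:**
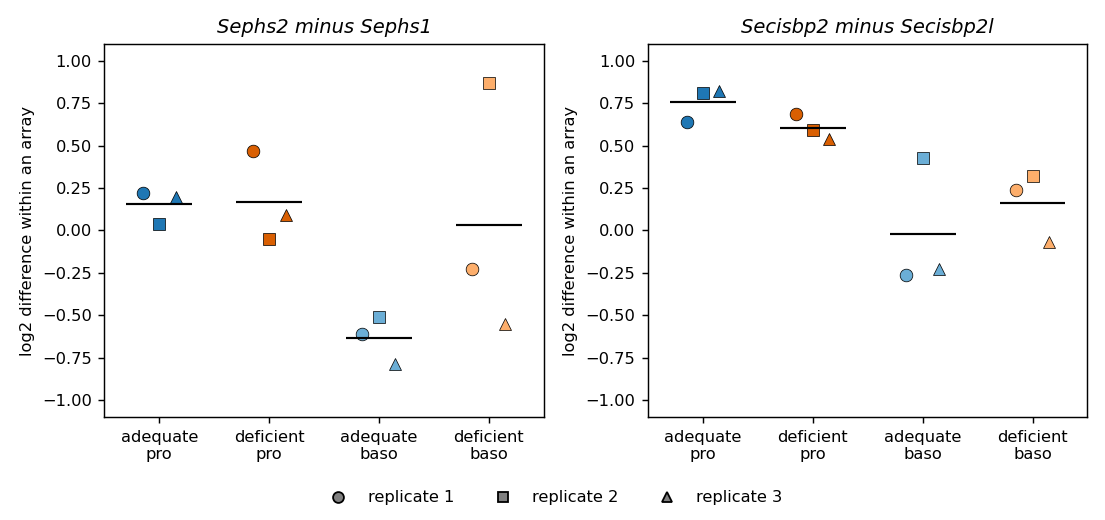
Within-array log2 differences, Sephs2 minus Sephs1 (left) and Secisbp2 minus Secisbp2l (right), in each group, with 1 symbol per replicate and the group mean as a line. For Secisbp2 minus Secisbp2l all proerythroblast arrays lie between 0.54 and 0.82 and all basophilic arrays between -0.26 and 0.43, while deficient basophilic replicate 2 lies at 0.87 for Sephs2 minus Sephs1.

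The second question was what the deficient diet changed in proerythroblasts. Pstk fell and no other member passed, 1 of 9 where 4.02% of all tested genes passed (2.76% lower). The arrays of Pstk, given above, were 6.58 to 6.93 on the adequate and 5.92 to 6.17 on the deficient diet, with no overlap. The deficient values lay below the 95th percentile of the GC background on their own arrays (6.80 to 6.94), as did adequate replicate 1 (6.58 against 7.02). The part of background in these values was not tested. The group means were 6.74 ± 0.18 and 6.08 ± 0.14 (SD, n = 3). The difference was -0.66 (SE 0.15, 95% interval -0.98 to -0.34, limma adjusted p = 0.0283), which is 63.3% of the adequate level. All 3 deficient proerythroblast arrays also lay above all 6 basophilic arrays, so deficient proerythroblasts stood between adequate proerythroblasts and both basophilic groups for Pstk.

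The call for Pstk depended on the arrays and the scaling. It was lost after quantile normalization (-0.64, adjusted p = 0.0677) and on leaving out any 1 of the 6 proerythroblast arrays (adjusted p from 0.0571 to 0.147) or adequate basophilic replicate 3 (0.0515). It passed without any 1 of the other 5 basophilic arrays, with an adjusted p of 0.0249 without deficient basophilic replicate 3. The estimate stayed between -0.74 and -0.57 in all fits that left out 1 array. With the replicate number as a block within each stage, the adjusted p was 0.0166.

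**Figure D4:**
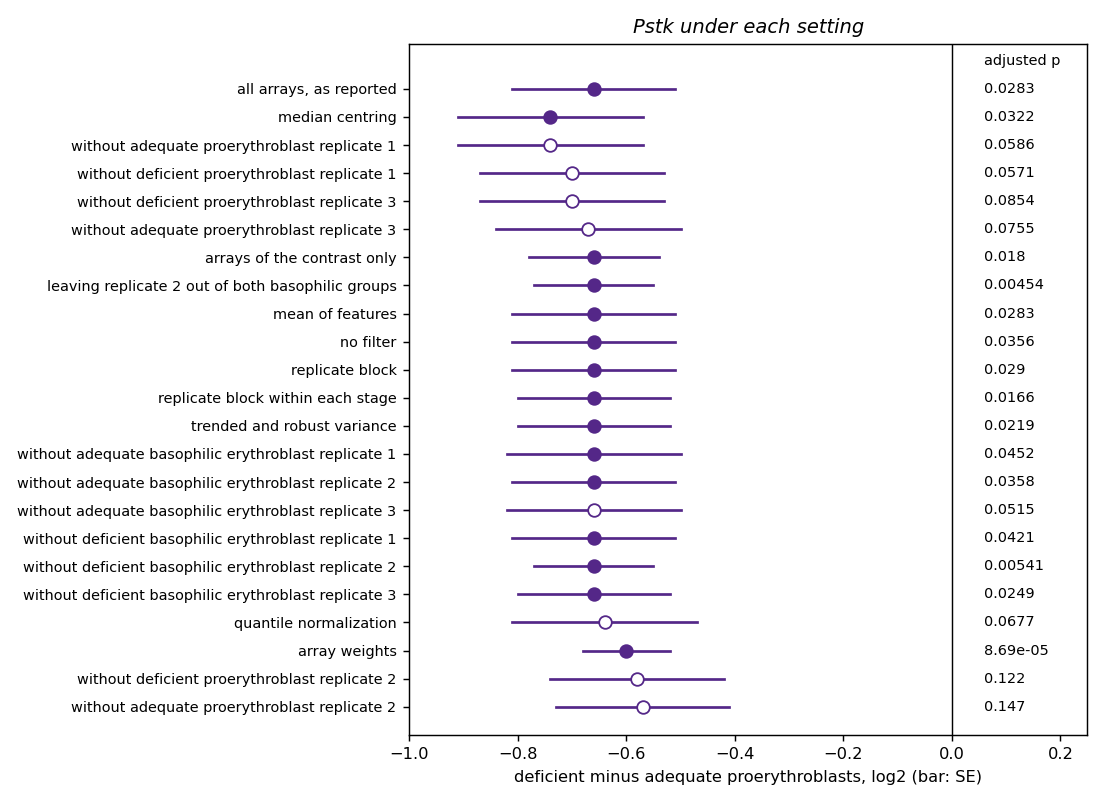
Difference in Pstk between deficient and adequate proerythroblasts (log2, with bars of 1 SE) as reported and under each alternative in which Pstk was tested, with the limma adjusted p at the right and open symbols where it was 0.05 or above. Every estimate lies between -0.74 and -0.57, and the adjusted p ranges from 8.69e-05 to 0.147.

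Eefsec had the second largest difference, -0.46 (SE 0.17, 95% interval -0.84 to -0.09, adjusted p = 0.202). Its groups met at 8.14, the value of adequate replicate 3 and of deficient replicate 1. With the block within each stage, where 11.1% of tested genes passed, Eefsec passed as well (adjusted p = 0.0455). Trnau1ap did not overlap between diets, with 7.64 to 7.79 on the adequate and 7.31 to 7.53 on the deficient diet, but the difference of -0.27 (SE 0.11) did not pass (adjusted p = 0.283). Of all tested genes, 15.6% lay lower without overlap in this comparison, and of the members Pstk and Trnau1ap did. Trnau1ap passed without replicate 2 of both basophilic groups (adjusted p = 0.0462, with 16.3% of all tested genes passing).

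The other members showed smaller differences relative to their spread. Sepsecs was at -0.33 (95% interval -0.89 to 0.24, adjusted p = 0.785) and Sephs1 at -0.15 (-0.98 to 0.68). Sephs2 was at -0.13 (-0.66 to 0.40), and its deficient replicates ran from 8.61 to 9.53 against 9.18 to 9.28 on the adequate diet. Scly was at -0.14 (-0.79 to 0.51), Secisbp2 at -0.08 (-0.47 to 0.31) and Secisbp2l at 0.07 (-0.53 to 0.67), each with an adjusted p of 0.998, as for Sephs1 and Sephs2. With limma array weights, where 39.8% of all tested genes passed, Sepsecs (-0.52, adjusted p = 0.00248), Eefsec (-0.51, 0.000451) and Trnau1ap (-0.20, 0.0109) passed beside Pstk. The members' median was -0.15, against 0.02 over all tested genes.

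Markers of erythroid stage moved with diet in the same arrays. Of 3 proerythroblast-side markers tested 2 fell, namely Kit, the receptor for stem cell factor (-2.18, adjusted p = 4.67e-05), and the progenitor transcription factor Myb (-2.06, adjusted p = 0.000255). Cd34, also of this list, was on the array but was not tested. The mean over all 4 markers of the list was 7.40 to 7.62 in adequate and 6.41 to 6.60 in deficient proerythroblasts, and 5.93 to 6.54 in basophilic erythroblasts. Of 9 erythroid markers 4 rose, where 1.27% of all tested genes did: Alas2 (1.67), Slc4a1 (1.39), Nfe2 (1.21) and Tfrc (0.97). The other erythroid markers lay between -0.11 and 0.31 and did not pass. The mean of all 9 was 9.70 to 10.03 on the adequate and 10.31 to 10.54 on the deficient diet. The part of a shift in stage within the proerythroblast gate in the difference in Pstk was not tested. Of the other marker lists, 1 of 9 neutrophil and 1 of 3 megakaryocyte markers rose, and none of 11 macrophage, 4 B cell, 6 T and NK cell and 4 stroma markers passed.

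In basophilic erythroblasts no member passed, and few genes did, 0.0199% of those tested. No member had an unadjusted p under 0.05. Sepsecs was lowest at -0.52 (95% interval -1.08 to 0.05, adjusted p = 0.825), and Sephs1 was at -0.42 (-1.25 to 0.41, adjusted p = 0.954). Sephs2 was highest at 0.24 (-0.29 to 0.77). Pstk was at -0.12 (-0.44 to 0.20), Eefsec at -0.20 (-0.58 to 0.17) and Scly at -0.13 (-0.78 to 0.52). The Pstk values here, 5.14 to 5.60, lay close to the filter value of 5.30, and the part of that floor in its small difference was not tested. Secisbp2 was at 0.03, Trnau1ap at 0.00 and Secisbp2l at -0.15, and all 9 members overlapped between diets, where 3.91% of tested genes lay lower and 4.13% higher without overlap. Trnau1ap gave the narrowest interval, -0.24 to 0.25. The members' median was -0.13 against 0.04 over all tested genes.

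**Figure D5:**
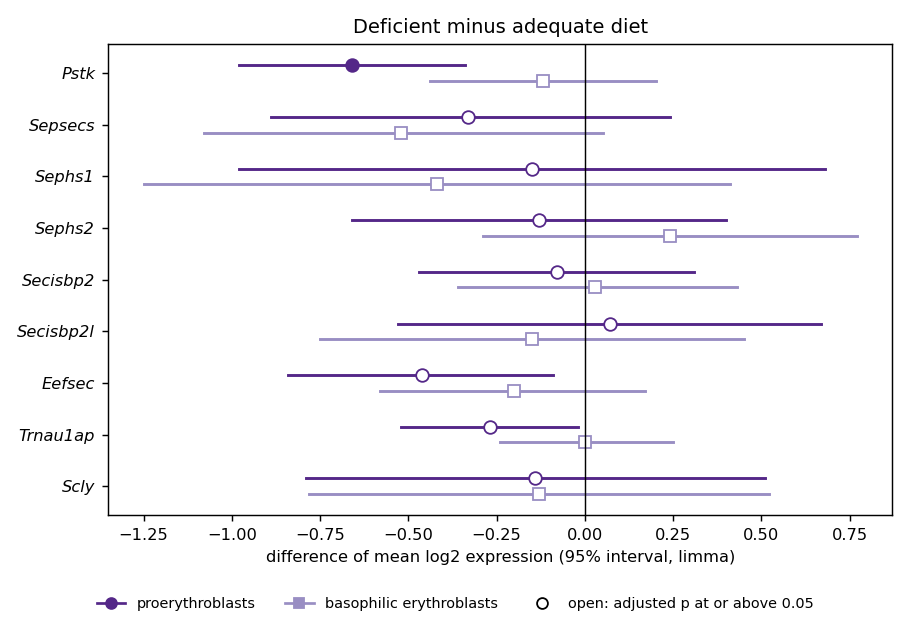
Difference of mean log2 expression, deficient minus adequate diet, for each gene in proerythroblasts (circles) and basophilic erythroblasts (squares), with 95% limma intervals and open symbols where the adjusted p was 0.05 or above. The estimate for Pstk in proerythroblasts, -0.66, is the filled symbol, and every interval in basophilic erythroblasts includes 0.

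Averaged over both stages no member passed, against 2.56% of tested genes. Pstk came nearest at -0.39 (SE 0.10, adjusted p = 0.0802), followed by Eefsec at -0.33 (SE 0.12, adjusted p = 0.216) and Sepsecs at -0.42 (SE 0.18, adjusted p = 0.336). These 3 had an unadjusted p under 0.05. With the replicate number as a block within each stage, where 10.2% of tested genes passed, all 3 passed: Sepsecs (adjusted p = 0.0161), Pstk (0.0369) and Eefsec (0.0451). Without replicate 2 of both basophilic groups, where 11.4% passed, Pstk (-0.33, adjusted p = 0.0402) and Sepsecs (-0.50, adjusted p = 0.0176) did.

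The test of whether the diet difference itself changed with stage passed for no member and for 0.303% of tested genes. For Pstk the diet difference in basophilic erythroblasts minus that in proerythroblasts was 0.54 (SE 0.21, 95% interval 0.08 to 1.00, adjusted p = 0.399). It was the only member with an unadjusted p under 0.05. A diet difference of Pstk that is particular to proerythroblasts was therefore not shown.

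In the order of the 4 group means, adequate proerythroblasts were highest for 8 members, and deficient proerythroblasts for Secisbp2l. Between deficient proerythroblasts and the higher basophilic group the arrays did not overlap for Pstk, Sepsecs, Sephs2, Secisbp2, Eefsec and Trnau1ap. Between the 2 proerythroblast groups they did not overlap for Pstk and Trnau1ap only, and between the 2 basophilic groups they overlapped for all 9. For Sephs1, Scly and Secisbp2l all neighbours in the order overlapped.

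The members varied together over the 12 arrays. Pearson's r over the 36 pairs of members ran from 0.13 to 0.95, with a median of 0.82, and this includes the stage difference they share. After each group's mean was subtracted, r ran from -0.38 to 0.92, with a median of 0.59. The lowest of these, -0.38, was for Secisbp2 with Trnau1ap. Pairs of other tested genes were not summarized, so varying together is not shown to be particular to the members. The arrays within a group were ordered alike for most members: replicate 3 was lowest for 8 of 9 in adequate proerythroblasts, replicate 2 for 7 of 9 in deficient proerythroblasts, and replicate 2 for 8 of 9 in each basophilic group. Trnau1ap was the exception in deficient basophilic erythroblasts, with its highest value in replicate 2.

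For each member that passed in any comparison, the 3 named genes most like it by Pearson's r over the 12 arrays were found. For Pstk they were Pdcd2 (0.983), Zfp780b (0.983) and Dnaja3 (0.982), and for Sepsecs they were Bloc1s5 (0.989), Scarb1 (0.987) and Erh (0.986). For Sephs2 they were Lsm1 (0.98), Aimp1 (0.98) and Stx18 (0.975). For Secisbp2 they were Thoc1 (0.994), Nol11 (0.991) and Twistnb (0.99). For Eefsec they were Fuca2 (0.995), Guk1 (0.993) and Dpagt1 (0.993), and for Trnau1ap they were Denr (0.99), Nbdy (0.989) and Dlat (0.987). Such values are common in these arrays, since between 6.51% (Sephs2) and 12.7% (Secisbp2) of the other tested genes had an r of 0.9 or more with these members.

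Other genes of the pathway were counted from lists. Of 9 accessory factors of the selenocysteine tRNA, of SECIS binding and of the cap, 7 were tested, and 5 fell with stage on each diet, where 25.6% and 24.9% of all tested genes fell. The medians were -0.95 and -0.88. On the adequate and the deficient diet Ncl, nucleolin, which binds SECIS elements, was at -2.03 and -1.85. Elavl1, the RNA-binding protein HuR, was at -0.95 and -0.88, and Tgs1, which hypermethylates caps, at -1.45 and -1.48. Alkbh8 and Trit1, which modify tRNA, were at -0.97 and -1.54 and at -0.54 and -0.47. Alkbh8 on the adequate diet lay close to the threshold (adjusted p = 0.0487, 0.177 after quantile normalization, and no call in 9 of 12 fits without 1 array), and Trit1 lost its call without adequate proerythroblast replicate 1 (0.0534) on that diet and without deficient proerythroblast replicate 1 or 3 (0.052 and 0.0733) on the other. None of the 7 passed in a diet comparison. Of 10 genes of nonsense-mediated decay, which degrades selenoprotein messages when UGA is read as stop, 7 were tested and 2 fell with stage on each diet: Smg1, a kinase (-1.13 and -1.16), and Smg8, its regulator (-1.44 and -0.80). That count is near the share of all tested genes that fell. None passed with diet.

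The selenoproteins that this machinery makes moved in both directions. Of 23 genes other than Sephs2, 20 were tested, and 4 rose and 6 fell with stage on the adequate diet, and 6 rose and 4 fell on the deficient diet, with medians of 0.04 and 0.19. These counts are near the shares of all tested genes, 28.7% higher and 25.6% lower on the adequate and 31.1% and 24.9% on the deficient diet. Selenos, a protein of the endoplasmic reticulum membrane, fell most among the named genes (-2.03 and -1.09). Txnrd2, a mitochondrial thioredoxin reductase, rose by 1.06 and 1.24, and Selenok, another protein of that membrane, rose by 0.95 on each diet. Selenoi, an ethanolamine phosphotransferase, fell (-1.51 and -0.60), as did Selenoh, a nucleolar protein (-1.14 and -0.85), and Selenow fell on the adequate diet (-0.93). In deficient proerythroblasts 1 of the 20 fell, Selenow (-1.29, adjusted p = 0.00129), and none rose, where 2.76% of all tested genes fell. Of 7 genes of selenium uptake and supply, 4 were tested, none passed with diet, and with stage Cbs, an enzyme of transsulfuration, rose by 0.64 and 0.62, and Slc7a11, the cystine transporter, rose by 1.02 on the adequate diet.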

How the data were processed

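Expression was measured on 12 Affymetrix whole-transcript arrays. The authors deposited log2 values made with Affymetrix Expression Console, per the submitters' processing notes. Its version, background correction and normalization are not given in the sources used here. Groups follow the titles. Of 72688 features, 31258 named 1 gene, 1492 several and 39938 none. Controls, 186 features, are counted within these classes. For genes with more than 1 feature (441) the one with the highest mean was used. A gene needed 3 arrays above 5.30, the median over all features and arrays, and 20128 genes met this. Limma 3.58.1 (R 4.3.3) fitted a mean per group over all 12 arrays with eBayes defaults, and Benjamini-Hochberg adjustment covered all tested genes in each of 6 comparisons, with a threshold of 0.05. The fit was tested on simulated data. Python 3.11.15 prepared the tables.

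All 9 members are named, of each other list at most the 4 genes with the smallest adjusted p in a comparison, and per member past the threshold the 3 genes most like it. The members, gene lists and markers were chosen with earlier results of these data known. Promoters were read from RefSeq windows of GRCm38.p6.

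The replicate numbers come from the titles. Deviations from the group means of same-numbered arrays of the 2 diets correlated at 0.46, 0.18 and 0.52 in proerythroblasts and at 0.72, 0.78 and 0.54 in basophilic erythroblasts. Differently numbered arrays gave -0.40 to 0.08 in proerythroblasts. In basophilic erythroblasts replicates 1 and 3 gave 0.60 and 0.51, and pairs with replicate 2 gave -0.76 to -0.57. There the values set replicate 2 apart and do not pair replicates 1 and 3. The numbers were taken to pair arrays within a stage, and calls under the block within each stage rest on that. Across stages r of same-numbered arrays ran from -0.17 to 0.28. Alternatives were the filter, quantile normalization, median centring, the variance model, array weights, a replicate block, the mean of features, the arrays of the contrast alone and leaving out each array. A block within each stage and the removal of replicate 2 from the basophilic groups were added after seeing the data.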

Additional observations from a re-analysis of the deposited data

How the results depend on the processing

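The share of all tested genes past the threshold is given in brackets. The number of members past it for diet in proerythroblasts was 1 as reported (4.02%). With the stricter filter (above 6.62), under which Pstk was not tested, it was 0 (6.61%). After quantile normalization it was 0 (3.96%), and with array weights it was 4 (39.8%). It was 2 without replicate 2 of both basophilic groups (16.3%) and 2 with the replicate block within each stage (11.1%). When 1 array was left out it was 0 to 1 (1.56% to 8.97%). Averaged over both stages the number was 0 as reported (2.56%), and 2 with array weights (12.2%). It was 2 without replicate 2 of both basophilic groups (11.4%) and 3 with the block within each stage (10.2%). When 1 array was left out it was 0 to 1 (1.22% to 7.47%). The planned replicate block over all groups kept Pstk in proerythroblasts at an adjusted p of 0.029. That block also added Scly to the stage calls, with 7 members on each diet (61.1% on the adequate and 62.7% on the deficient diet). The block within each stage changed no diet call beside those given in the report. Fitted to the stage comparisons, a block within each stage treats the numbers as fixed, and 7 (adequate) and 8 (deficient) members passed there. On each diet 72.5% of all tested genes then passed.

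Signs turned only for differences that did not pass. In basophilic erythroblasts the diet difference was 0.09 for Pstk, -0.02 for Sephs2 and 0.04 for Secisbp2l with array weights. It was -0.01 (quantile normalization) and -0.03 (median centring) for Secisbp2, and 0.02 for Scly without replicate 2 of both basophilic groups. Leaving out 1 array gave -0.73 to 0.14 for Sephs1, -0.09 to 0.27 for Secisbp2, -0.42 to 0.16 for Secisbp2l and -0.32 to 0.20 for Scly. In proerythroblasts it gave -0.35 to 0.11 for Sephs2 and -0.33 to 0.08 for Scly, and Secisbp2l was at -0.01 after median centring. The stage difference of Secisbp2l was 0.20 after quantile normalization on the adequate diet and 0.19 with array weights on each diet. Without replicate 2 of both basophilic groups it was 0.25 and 0.07, and leaving out 1 array gave -0.21 to 0.25 and -0.48 to 0.07. The causes were not tested. Of the values of single genes and settings compared, 1533 kept their direction and side of the threshold, 57 lost a call, 25 gained one and 25 turned sign. Signal over background limits Pstk, Sepsecs, Eefsec and Trnau1ap in basophilic erythroblasts, where their means lie below the 95th percentile of the GC background. In replicate 2 of both basophilic groups it limits all 9 members. It also limits Pstk in proerythroblasts, where the 3 deficient values and adequate replicate 1 lie below that percentile of their own arrays.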
